A study of Mus musculus with 9 samples.

Results

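The HOX genes encode homeodomain transcription factors and lie in 4 clusters in the mouse, HOX A on chromosome 6, HOX B on chromosome 11, HOX C on chromosome 15 and HOX D on chromosome 2. Members were taken by gene symbol, as every row of the deposited count table named Hoxa, Hoxb, Hoxc or Hoxd followed by digits only. The rule gave 37 of 18094 genes: 11 in HOX A, 9 in HOX B, 8 in HOX C and 9 in HOX D. Of these, 30 passed the filter on low counts and were tested among 15186 genes. The other 7, among them Hoxc9, Hoxc13, Hoxd12 and Hoxd13, had too few reads to test, so counts over the 30 leave them out.

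The samples are 9 uteri, 1 RNA-seq library each, taken from females harvested 13 weeks after birth, with 3 mice a group. Tamoxifen+primidone mice were given 1 mg/kg tamoxifen, a selective estrogen receptor modulator, on days 1 to 5 after birth. From week 10 they received intraperitoneal primidone, an anticonvulsant, at 2 mg/kg per day for 3 weeks. Tamoxifen mice had the same neonatal dose and then the vehicle in place of primidone. Control mice received the solvent after birth and the vehicle from week 10, so all 3 groups were handled and injected alike. The series is about adenomyosis, in which endometrial tissue grows into the uterine muscle, and neonatal tamoxifen is its mouse model. No group had primidone without tamoxifen. Strain, estrous stage and lesion extent, not given in the sources used here, could not enter the analysis.

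Genes with the same paralogue number in different clusters descend from one ancestral gene, and the order of the genes along a cluster matches the order in which they are expressed along the body axis, low numbers towards the head. In the developing female tract of the mouse, Hoxa9 marks the oviduct, Hoxa10 the uterus, Hoxa11 the uterus and cervix, and Hoxa13 the cervix and upper vagina. Hoxa10 and Hoxa11 stay on in the adult uterus, where they respond to estrogen and progesterone and are needed for implantation and for the stromal response to it. HOX proteins bind DNA together with TALE homeodomain partners of the PBX, MEIS and PKNOX families.

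Total counts per library ranged from 36393120 to 39958443, of which 23574 to 29433 fell on HOX genes. No 2 replicates of a group were alike within counting noise, as 1 library deposited again would be (chi-square per degree of freedom 20.24 to 81.35). In bulk tissue, fewer cells of a type and less RNA per cell cannot be told apart. Defining markers of smooth muscle, uterine epithelium and endometrial stroma were all above 0 in all 9 libraries. Marker levels moved with the groups, and their part in the HOX results was not tested. Of 10 smooth muscle and 10 epithelial markers, 2 each fell and 0 rose with tamoxifen+primidone against control, while 3 of 6 mesothelium markers and 1 of 9 endometrial stroma markers rose and 0 fell (all genes: 2.14% higher, 3.21% lower). The summed level of the smooth muscle markers was 6545 to 8175 CPM (counts scaled to library size) with tamoxifen+primidone, 6835 to 8293 CPM with tamoxifen and 8472 to 13370 CPM in controls. For the epithelial markers the sums were 3949 to 4657 CPM with tamoxifen+primidone, 5485 to 5771 CPM with tamoxifen and 5327 to 5713 CPM in controls. The mesothelium markers summed to 155 to 170 CPM with tamoxifen+primidone, 115 to 157 CPM with tamoxifen and 77.1 to 101 CPM in controls. Sums for 8 proliferation markers were 76.1 to 244 CPM with tamoxifen+primidone, 71.3 to 82.8 CPM with tamoxifen and 221 to 296 CPM in controls. Because HOX genes mark levels of the tract, markers of its other parts were also summed. The 10 of stratified squamous epithelium (cervix or vagina) gave 90.0 to 124 CPM with tamoxifen+primidone, 74.9 to 182 CPM with tamoxifen and 50.1 to 103 CPM in controls. The 8 of the oviduct gave 56.6 to 61.4 CPM with tamoxifen+primidone, 122 to 324 CPM with tamoxifen and 73.1 to 118 CPM in controls. The oviduct markers did not move together. With tamoxifen against control, 3 of the 6 tested were higher and 3 lower (log2 differences -0.429 to 3.151, median -0.086). With tamoxifen+primidone against tamoxifen, 2 were higher and 4 lower (-7.457 to 1.017, median -0.144).

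Levels are given as the deposited FPKM, fragments scaled to gene length and library size, on which genes of different length can be compared. FPKM leave out the TMM factors, the further scaling between libraries used in the tests. These factors were 1.0181 to 1.0499 with tamoxifen+primidone and 0.9704 to 0.9969 in the other libraries. Against the other groups, tamoxifen+primidone levels therefore stand somewhat higher in FPKM than in TMM-scaled CPM. The order of genes depends on the length used, which was 10599 bases for Hoxa3 and 7759 for Hoxb3. In controls Hoxb3 averaged 53.1 CPM and Hoxb2 35.0 CPM, but 6.72 and 19.9 FPKM. Over the 9 libraries, 5 HOX genes averaged at least 20 FPKM, 8 averaged 5 to 20, 6 averaged 1 to 5 and 18 averaged under 1. The 5 highest were Hoxb6 at 45.2, Hoxa11 at 40.8, Hoxb8 at 33.9, Hoxa10 at 33.1 and Hoxb7 at 27.8 FPKM. Hoxb6 stood at the 92.1 percentile of all genes in the file. In controls Hoxb6 averaged 45.5 ± 3.69, Hoxb8 38.7 ± 0.634, Hoxa11 35.6 ± 6.61, Hoxa10 30.6 ± 4.33 and Hoxb7 25.5 ± 1.85 FPKM (SD, n = 3). Neighbours in that order other than Hoxb6 and Hoxb8 lay within their spread between libraries. The full order was not fixed within libraries, as Hoxa11 over Hoxb8 ran from 0.71 to 1.04 in controls. Parts of it were: Hoxa11 was above Hoxa10 in all 9 libraries (ratio 1.09 to 1.34), and Hoxa10 above Hoxb7 in each control.

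Each cluster had its own active stretch. In HOX A, expression stepped up at paralogue 9: Hoxa2 to Hoxa7 averaged 0.146 to 1.06 FPKM, Hoxa9 averaged 5.46, Hoxa10 and Hoxa11 were at their peak, and Hoxa13 was back at 0.428 FPKM. HOX B ran the other way, with Hoxb2 to Hoxb8 all at 6.29 to 45.2 FPKM and Hoxb9 at 1.66. HOX D was expressed from Hoxd3 to Hoxd11, at 1.22 to 15.2 FPKM, with its highest level at Hoxd9. No HOX C gene averaged above 1.02 FPKM, the level of Hoxc6. The genes numbered 12 or 13 in the file, Hoxa13, Hoxc13, Hoxd12 and Hoxd13, were near 0. Hoxa13, the cervicovaginal member, ranged from 0 to 0.877 FPKM over single libraries, and Hoxd13, which patterns digits and genitalia, from 0 to 0.083. The file held no HOX B gene numbered above 9 and no Hoxc12, so nothing can be said of such genes.

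**Figure D1:**
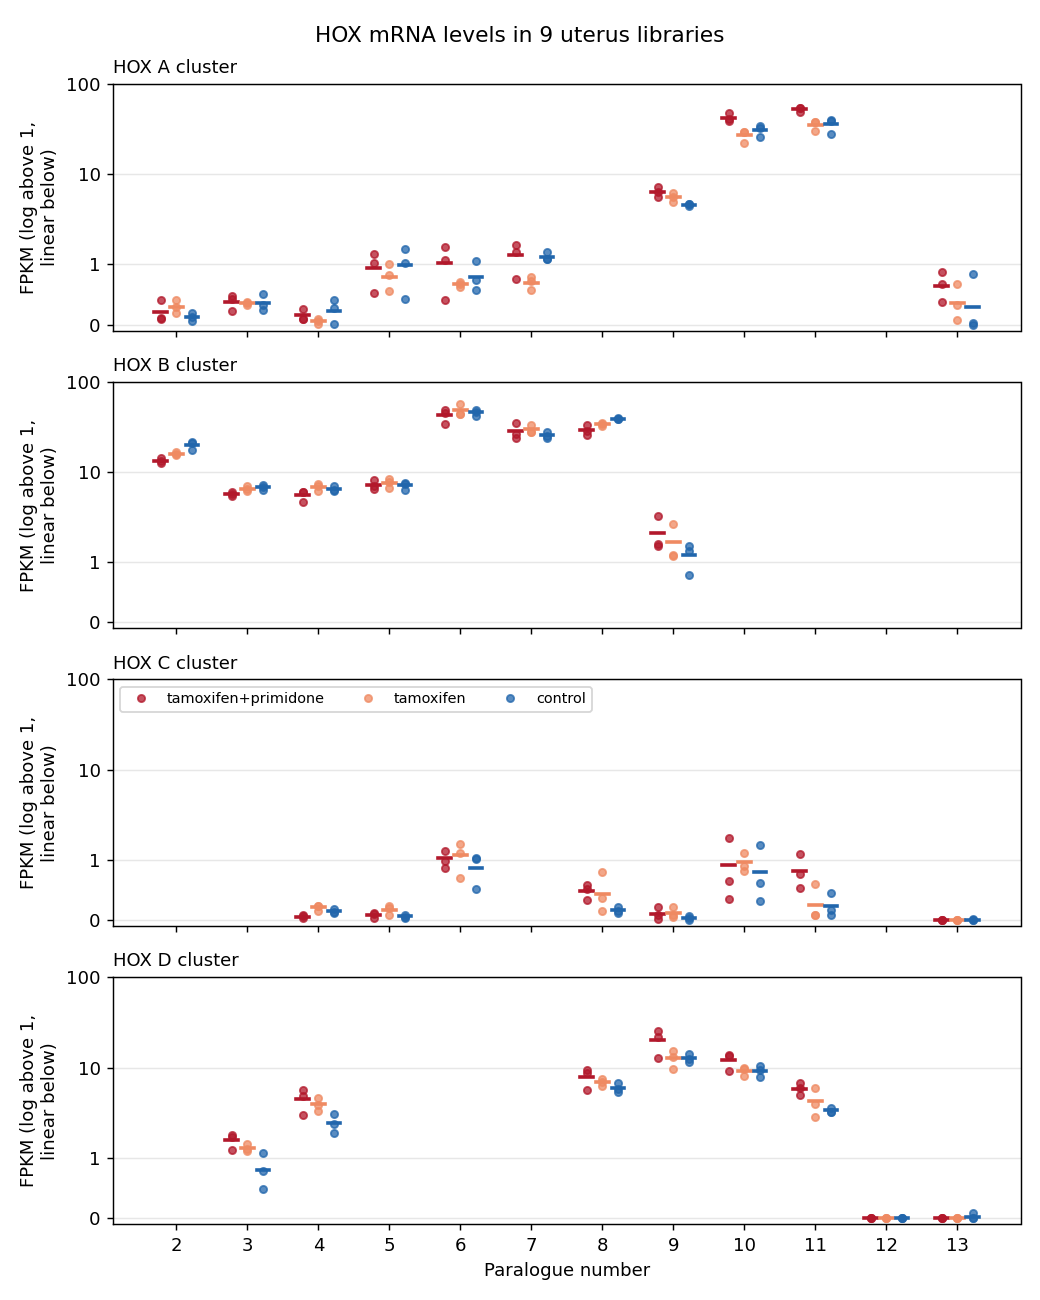
HOX mRNA levels by paralogue number (horizontal axis, 2 to 13) in the 4 clusters, in FPKM on an axis that is logarithmic above 1 and linear below. Points are single libraries, 3 a group, and short bars are group means; HOX A is high from paralogue 9 to 11, HOX B from 2 to 8 and HOX D from 8 to 11. The highest HOX C average over the 9 libraries is 1.02 FPKM (Hoxc6).

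Summed over the 37 genes, HOX levels averaged 294 ± 22.2 FPKM with tamoxifen+primidone, 262 ± 20.5 with tamoxifen and 263 ± 15.3 in controls (SD, n = 3 each). Each sum leaves out the TMM factors, which raises tamoxifen+primidone somewhat against the other groups. The make-up of that sum differed more than its size. HOX A held 35.7 ± 1.32% of it with tamoxifen+primidone, 26.9 ± 1.61% with tamoxifen and 28.4 ± 3.26% in controls. The HOX B share was 45.5 ± 3.07% with tamoxifen+primidone, 57.2 ± 2.06% with tamoxifen and 57.6 ± 2.46% in controls. For both clusters the 3 tamoxifen+primidone libraries lay outside the range of the other 6: 34.3 to 36.9% against 24.8 to 31.2% for HOX A, and 43 to 48.9% against 55.8 to 60.4% for HOX B. HOX D held 17.7 ± 3.7% with tamoxifen+primidone, 14.5 ± 0.929% with tamoxifen and 13.1 ± 0.635% in controls, with overlap, since 1 tamoxifen+primidone library stood at 13.4%. By paralogue number, paralogue 10 made up 18.7 ± 0.954% with tamoxifen+primidone, 14.1 ± 1.11% with tamoxifen and 15.4 ± 0.643% in controls. Paralogue 11 made up 20 ± 1.13% with tamoxifen+primidone, 15 ± 0.954% with tamoxifen and 14.9 ± 1.92% in controls. Paralogue 8 made up 12.8 ± 1.13% with tamoxifen+primidone, 15.8 ± 0.924% with tamoxifen and 17.1 ± 1.3% in controls, and paralogue 2 made up 4.62 ± 0.53% with tamoxifen+primidone, 6.22 ± 0.662% with tamoxifen and 7.6 ± 0.484% in controls. These shares are descriptions and carry no test.

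**Figure D2:**
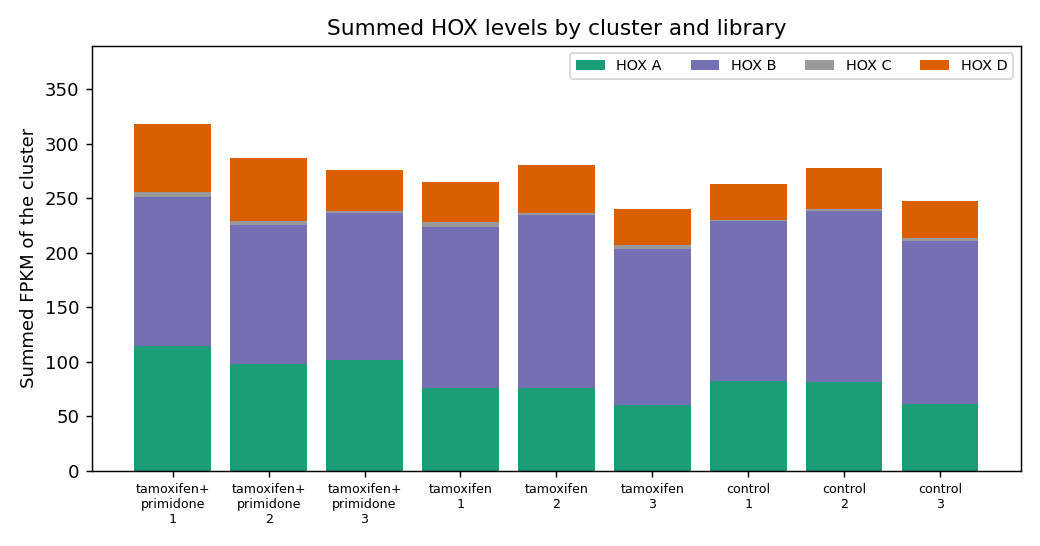
Summed FPKM of the HOX genes of each cluster (stacked bars, vertical axis) in the 9 libraries (horizontal axis). The HOX A block is larger in the 3 tamoxifen+primidone libraries, at 98.3 to 114.6 FPKM, than in the tamoxifen libraries, at 60.6 to 76.2 FPKM, and the controls, at 61.4 to 82.0 FPKM.

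The comparison of tamoxifen+primidone with control tests both treatments at once, and it gave the only HOX genes past the threshold in a comparison of 2 groups by edgeR. Hoxb2, Hoxb3 and Hoxb8 fell, and no HOX gene rose by that test. That is 3 of 30 tested members, all lower, against 3.21% lower and 5.35% in either direction among all 15186 genes (edgeR quasi-likelihood test, Benjamini-Hochberg adjusted p under 0.05). Of all genes, 2.14% were called higher. DESeq2 called 8 HOX genes, Hoxa9, Hoxa11, Hoxd3, Hoxd4 and Hoxd11 higher and 3 lower, against 5.82% higher and 6.62% lower among all genes (12.4% in all). A replicate term in edgeR gave 5 HOX calls, with Hoxa11 and Hoxd4 higher, and leaving out control 1 gave 0. At an unadjusted p under 0.05, 8 HOX genes were higher and 5 lower, against 11.3% higher, 11.9% lower and 23.2% in either direction among all genes. Library ranges did not overlap for 7 HOX genes higher and 5 lower, against 14.1% and 15.1% of all genes (29.1% in all). All-gene calls split into 325 higher and 487 lower, or 431 and 400 with upper-quartile scaling and 674 and 337 on log2(FPKM + 1).

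Hoxb2, which specifies hindbrain segments in the embryo, stood at 12.6, 13.2 and 14.1 FPKM with tamoxifen+primidone, at 15.9, 15.5 and 16.4 FPKM with tamoxifen and at 21.0, 21.2 and 17.4 FPKM in controls. The groups did not overlap, and the tamoxifen libraries lay between the others. Against controls it fell by 0.66 on the log2 scale with tamoxifen+primidone (SE 0.10, adjusted p = 0.00984). Leaving out control 1 ended the call (adjusted p = 0.0517), and the other leave-one-out fits kept it.

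Hoxb8, known for its part in myeloid progenitors and microglia, stood at 28.6, 25.8 and 32.8 FPKM with tamoxifen+primidone, at 35.0, 34.2 and 32.6 FPKM with tamoxifen and at 38.2, 38.5 and 39.4 FPKM in controls. Every control library was above every other library. Hoxb8 fell by 0.49 on the log2 scale with tamoxifen+primidone against control (SE 0.10, adjusted p = 0.0217). The call was lost without control 1, 2 or 3 or tamoxifen+primidone 2, with adjusted p from 0.0509 to 0.0795.

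Hoxb3, another anterior gene of the hindbrain and of blood progenitors, stood at 5.92, 5.74 and 5.37 FPKM with tamoxifen+primidone, 6.39, 6.91 and 6.18 FPKM with tamoxifen and 7.11, 6.81 and 6.23 FPKM in controls. The tamoxifen+primidone libraries were the lowest 3 of 9, and the other groups overlapped. Its change against control was -0.32 (SE 0.08, adjusted p = 0.0473), and leaving out any 1 of the 9 libraries ended the call, with adjusted p from 0.0572 to 0.173. In GENCODE vM21, Hoxb2 and Hoxb3 overlap the antisense gene Hoxb3os, and without a stated strand setting their counts may hold reads of that gene. Hoxb8 overlaps no other annotated gene.

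**Figure D3:**
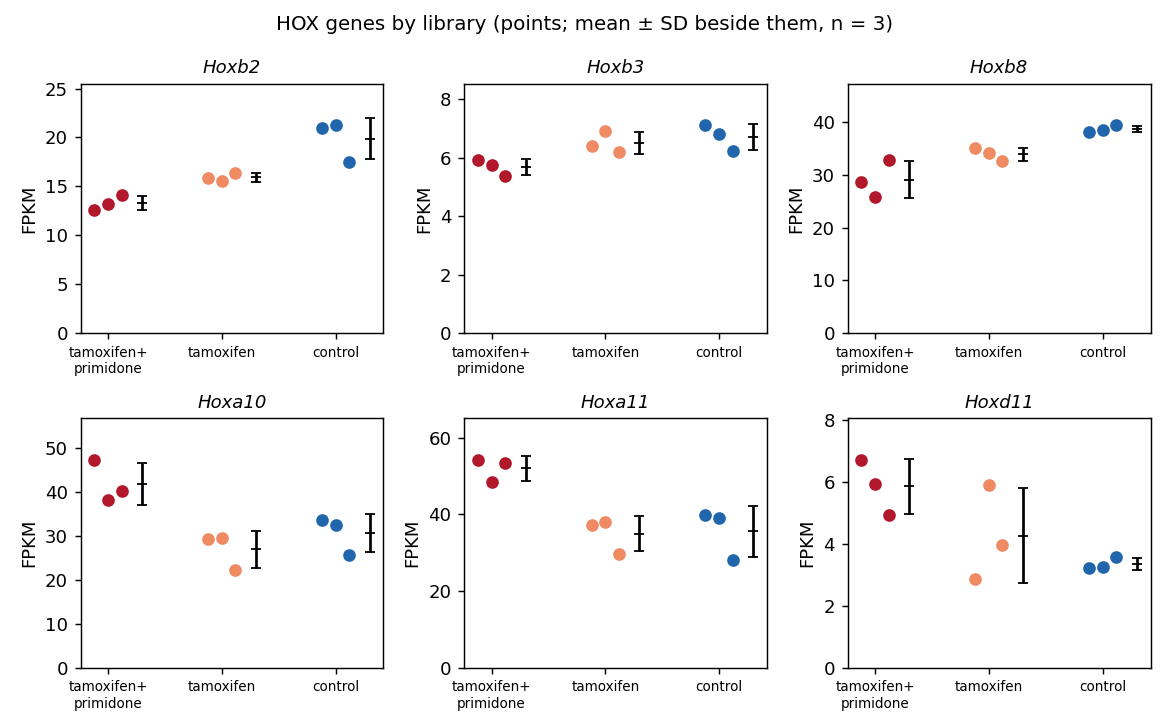
FPKM (vertical axes, from 0) of 6 HOX genes in each library, with group mean ± SD beside the points (n = 3). Hoxb2, Hoxb3 and Hoxb8 are lowest with tamoxifen+primidone, while Hoxa10 and Hoxa11 are highest there and Hoxd11 overlaps between tamoxifen+primidone and tamoxifen.

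The remaining HOX B genes gave no call. Hoxb4, which expands blood stem cells when overexpressed, had 5.91, 4.65 and 5.94 FPKM with tamoxifen+primidone, 6.14, 7.41 and 7.05 FPKM with tamoxifen and 6.13, 6.31 and 7.06 FPKM in controls. Its difference with tamoxifen+primidone against control was -0.32 (SE 0.14, adjusted p = 0.19), and again the tamoxifen+primidone libraries were the lowest 3. Hoxb5, active in the neural crest of the gut, stood at 8.19, 6.94 and 6.40 FPKM with tamoxifen+primidone, 6.63, 7.75 and 8.33 FPKM with tamoxifen and 7.54, 7.29 and 6.38 FPKM in controls. Hoxb6 stood at 48.02, 44.4 and 33.9 FPKM with tamoxifen+primidone, 43.7, 56.1 and 44.0 FPKM with tamoxifen and 41.5, 48.8 and 46.4 FPKM in controls. Hoxb7, whose promoter is active in the embryonic nephric duct, had 26.0, 23.6 and 34.9 FPKM with tamoxifen+primidone, 33.3, 27.7 and 27.6 FPKM with tamoxifen and 24.0, 27.6 and 25.03 FPKM in controls. For Hoxb5 and Hoxb6 all 3 groups overlapped. For Hoxb7 all 3 tamoxifen libraries were above all controls, and tamoxifen+primidone spanned the other groups. Tamoxifen libraries 2 and 3, at 27.72 and 27.60 FPKM, were barely above the highest control, at 27.58 FPKM.

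The posterior genes of HOX A and HOX D averaged higher, not lower, with tamoxifen+primidone, and none passed edgeR's threshold. Hoxa10, the uterine member of the axial code, stood at 47.3, 38.1 and 40.2 FPKM with tamoxifen+primidone, at 29.3, 29.5 and 22.1 FPKM with tamoxifen and at 33.6, 32.6 and 25.6 FPKM in controls. The 3 tamoxifen+primidone libraries were above the other 6. The log2 difference of tamoxifen+primidone was 0.56 against tamoxifen (SE 0.14, adjusted p = 0.142) and 0.38 against control (SE 0.14, adjusted p = 0.133).

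Hoxa11, needed for uterine glands and stroma in the mouse, stood at 54.2, 48.3 and 53.4 FPKM with tamoxifen+primidone, at 37.2, 38.0 and 29.7 FPKM with tamoxifen and at 39.9, 39.0 and 28.0 FPKM in controls. Again no tamoxifen+primidone library overlapped the other 6. The log2 difference was 0.50 against tamoxifen (SE 0.14, adjusted p = 0.178) and 0.47 against control (SE 0.14, adjusted p = 0.0753). Hoxa11 overlaps the antisense gene Hoxa11os, while Hoxa10 overlaps no other annotated gene. The ratio of Hoxa11 to Hoxa10 was 1.15, 1.27 and 1.33 with tamoxifen+primidone, 1.27, 1.29 and 1.34 with tamoxifen and 1.19, 1.2 and 1.09 in controls, so tamoxifen lay above control without overlap and tamoxifen+primidone overlapped both.

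Hoxa9, the oviduct member, stood at 7.09, 6.31 and 5.54 FPKM with tamoxifen+primidone, 6.14, 5.51 and 4.92 FPKM with tamoxifen and 4.64, 4.60 and 4.37 FPKM in controls. Both dosed groups were above all controls and overlapped each other. With tamoxifen+primidone against control the log2 difference was 0.40 (SE 0.12, adjusted p = 0.0864), and against tamoxifen it was 0.12 (SE 0.12, adjusted p = 0.73). Hoxa13 had 0.68, 0.877 and 0.369 FPKM with tamoxifen+primidone, 0.323, 0.0834 and 0.667 FPKM with tamoxifen and 0.833, 0 and 0.0199 FPKM in controls. Control 1 lay among the dosed libraries, controls 2 and 3 were below all of them, and the dosed groups overlapped each other. The log2 difference of tamoxifen+primidone was 1.08 against control (SE 1.24, adjusted p = 0.65) and 0.75 against tamoxifen (SE 1.22, adjusted p = 0.835). Against control it ran from 0.501 to 5.613 with 1 library left out, with a smallest adjusted p of 0.078 by edgeR.

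In HOX D, Hoxd9 stood at 25.6, 21.9 and 12.8 FPKM with tamoxifen+primidone, 13.1, 15.3 and 9.77 FPKM with tamoxifen and 11.7, 14.2 and 12.3 FPKM in controls. Tamoxifen+primidone libraries 1 and 2 were above all others and library 3 lay among them. Its log2 difference was 0.58 against tamoxifen (SE 0.23, adjusted p = 0.319) and 0.58 against control (SE 0.23, adjusted p = 0.179). Hoxd10, a motor neuron and hindlimb gene, had 13.96, 13.5 and 9.30 FPKM with tamoxifen+primidone, 9.55, 9.87 and 8.11 FPKM with tamoxifen and 7.85, 10.5 and 9.30 FPKM in controls. Its log2 difference was 0.34 against tamoxifen (SE 0.16, adjusted p = 0.373) and 0.34 against control (SE 0.16, adjusted p = 0.237). Hoxd10 showed the same arrangement as Hoxd9, with library 3 among the other groups.

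Hoxd11, which acts with Hoxa11 in forearm and kidney development, had 6.70, 5.91 and 4.92 FPKM with tamoxifen+primidone, 2.88, 5.90 and 3.97 FPKM with tamoxifen and 3.23, 3.26 and 3.58 FPKM in controls. The tamoxifen+primidone and control libraries did not overlap. Against control the log2 difference was 0.72 (SE 0.22, adjusted p = 0.0864) and against tamoxifen 0.39 (SE 0.22, adjusted p = 0.471). Hoxd8, the neighbour on the anterior side, had 9.47, 8.70 and 5.66 FPKM with tamoxifen+primidone, 7.43, 6.93 and 6.29 FPKM with tamoxifen and 6.69, 5.39 and 5.83 FPKM in controls. Those groups overlapped.

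The anterior HOX D genes Hoxd3 and Hoxd4, which pattern neck vertebrae, had their lowest averages in controls. Hoxd4 had 4.91, 5.71 and 2.96 FPKM with tamoxifen+primidone, 3.29, 4.59 and 3.85 FPKM with tamoxifen and 2.40, 3.04 and 1.88 FPKM in controls. Hoxd3 had 1.71, 1.78 and 1.24 FPKM with tamoxifen+primidone, 1.25, 1.18 and 1.44 FPKM with tamoxifen and 0.783, 1.12 and 0.478 FPKM in controls. For Hoxd3 every library of the dosed groups was above every control, and for Hoxd4 tamoxifen+primidone library 3 lay among the controls. Against control, the log2 difference of Hoxd4 was 0.81 with tamoxifen+primidone (SE 0.25, adjusted p = 0.0898) and 0.68 with tamoxifen (SE 0.25, adjusted p = 0.2). For Hoxd3 it was 0.91 with tamoxifen+primidone (SE 0.31, adjusted p = 0.108) and 0.70 with tamoxifen (SE 0.31, adjusted p = 0.266). Between tamoxifen+primidone and tamoxifen the libraries of both genes overlapped, with log2 differences of 0.14 for Hoxd4 (SE 0.25, adjusted p = 0.855) and 0.21 for Hoxd3 (SE 0.30, adjusted p = 0.809). Hoxd3 and Hoxd4 overlap each other in the annotation, so reads could be split or lost between them. Across the clusters, 23 of the 37 HOX genes overlap another annotated gene, 14 of them on the opposite strand. Hoxd10 and Hoxd11 overlap Gm28309 on the same strand, and Hoxc6, Hoxc8 and Hoxc10 overlap Hoxc5. Antisense genes overlap Hoxd8 (Hoxd3os1), Hoxa7 (Hoxaas3), and Hoxb5 and Hoxb6 (Hoxb5os). The counts of all these genes carry the same uncertainty.

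Among genes at low level, Hoxc4 had 0.0684, 0.0331 and 0.0806 FPKM with tamoxifen+primidone, 0.242, 0.156 and 0.242 FPKM with tamoxifen and 0.118, 0.185 and 0.143 FPKM in controls, at 6 to 15 reads per library with tamoxifen+primidone, 27 to 46 with tamoxifen and 22 to 33 in controls. All tamoxifen+primidone libraries were below all others. Its log2 difference was -1.87 against tamoxifen (SE 0.49, adjusted p = 0.168) and -1.35 against control (SE 0.50, adjusted p = 0.134). Hoxc8, a thoracic gene, had 0.579, 0.517 and 0.343 FPKM with tamoxifen+primidone, 0.796, 0.161 and 0.368 FPKM with tamoxifen and 0.128, 0.156 and 0.219 FPKM in controls. Its log2 difference from control was 1.43 with tamoxifen+primidone (SE 0.59, adjusted p = 0.179) and 1.39 with tamoxifen (SE 0.59, adjusted p = 0.251). The tamoxifen+primidone libraries were above the controls, and the tamoxifen libraries overlapped them. The other 9 tested members at low level (Hoxa2 to Hoxa6, Hoxb9, Hoxc6, Hoxc10 and Hoxc11) averaged 0.146 to 1.66 FPKM. With tamoxifen+primidone against control their log2 differences ran from -0.68 to 1.71, and in the 4 comparisons the smallest adjusted p among them was 0.259.

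Tamoxifen against control asks what the neonatal dose left behind at 13 weeks. No HOX gene passed the threshold, with 1.53% of all genes called by edgeR (0.573% higher and 0.961% lower). DESeq2, which called 7.53% of all genes (3.56% higher and 3.97% lower), and limma-voom also called 0 HOX genes. At an unadjusted p under 0.05 edgeR gave 5 HOX genes higher and 2 lower, against 8.82% and 8.95% of all genes (17.8% in all). Library ranges did not overlap for 6 HOX genes higher and 3 lower, against 12.7% and 13.4% of all genes (26.1% in all). By unadjusted p, the 5 were Hoxa9, Hoxd3, Hoxd4, Hoxc5 and Hoxc8, and the 2 were Hoxb2 and Hoxa7. Hoxb2 differed by -0.32 (SE 0.10, adjusted p = 0.133), with all 3 tamoxifen libraries below all controls. Hoxa9 differed by 0.28 (SE 0.12, adjusted p = 0.268). Hoxa7, a thoracic gene, had 1.38, 1.66 and 0.761 FPKM with tamoxifen+primidone, 0.718, 0.577 and 0.797 FPKM with tamoxifen and 1.37, 1.15 and 1.14 FPKM in controls. Its log2 difference was -0.81 in tamoxifen against control (SE 0.33, adjusted p = 0.239), without overlap, and 0.78 in tamoxifen+primidone against tamoxifen (SE 0.33, adjusted p = 0.336). Hoxc5 had 0.0398, 0.116 and 0.113 FPKM with tamoxifen+primidone, 0.211, 0.0906 and 0.23 FPKM with tamoxifen and 0.0468, 0.0587 and 0.0863 FPKM in controls, at 4 to 12 reads per library with tamoxifen+primidone, 9 to 25 with tamoxifen and 5 to 9 in controls. Its log2 difference with tamoxifen against control was 1.46 (SE 0.65, adjusted p = 0.276). Hoxc5 overlaps 4 other HOX C genes in the annotation, so its reads are uncertain. Hoxa10 differed by -0.19 (SE 0.14, adjusted p = 0.517), Hoxa11 by -0.03 (SE 0.14, adjusted p = 0.939) and Hoxa13 by 0.32 (SE 1.25, adjusted p = 0.927). Hoxd10 differed by -0.01 (SE 0.16, adjusted p = 0.985) and Hoxd11 by 0.33 (SE 0.22, adjusted p = 0.473). On simulated counts for this comparison, a change of 1.5-fold was recovered in 32% of genes and one of 2-fold in 76%, so changes of this size could be missed.

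Tamoxifen+primidone against tamoxifen isolates the added primidone. edgeR called 2 of 15186 genes (0.0132%), neither of them a HOX gene. At an unadjusted p under 0.05, edgeR gave 4 HOX genes higher (Hoxa7, Hoxa10, Hoxa11 and Hoxd9) and 5 lower (Hoxb2, Hoxb3, Hoxb4, Hoxb8 and Hoxc4), against 6.3% higher and 7.51% lower among all genes (13.8% in all). Library ranges did not overlap for 2 HOX genes higher and 5 lower, against 8.08% and 8.55% of all genes (16.6% in all). DESeq2 called 3 HOX genes: Hoxa10 and Hoxa11 higher (adjusted p = 0.0126 and 0.0374) and Hoxc4 lower (adjusted p = 0.0188), against 3.95% of all genes by DESeq2 (1.41% higher and 2.54% lower). The log2 difference was -0.33 for Hoxb2 (SE 0.10, adjusted p = 0.201), -0.27 for Hoxb3 (SE 0.08, adjusted p = 0.198) and -0.39 for Hoxb4 (SE 0.14, adjusted p = 0.242). For Hoxb8 it was -0.30 (SE 0.10, adjusted p = 0.218). Hoxb8 did not overlap between the groups after TMM scaling, though on the FPKM scale tamoxifen+primidone library 3 and tamoxifen library 3 were level.

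Side by side, the comparisons show opposite signs for the anterior and central HOX B genes and the posterior genes of HOX A and HOX D, 2 subsets chosen after their values were seen and therefore not tested. The positive sign was not limited to posterior genes. In tamoxifen+primidone against tamoxifen, all 6 tested HOX D genes and 9 of 10 HOX A genes were positive. With tamoxifen+primidone against control these were 6 of 6 and 6 of 10. Hoxb9 was positive in both, at 0.26 (SE 0.42, adjusted p = 0.833) and 0.71 (SE 0.43, adjusted p = 0.344). In tamoxifen+primidone against tamoxifen, the 7 genes Hoxb2 to Hoxb8 were all negative (median log2 difference -0.27), while the 6 genes Hoxa9 to Hoxa11 and Hoxd9 to Hoxd11 were all positive (median 0.45). The median over all tested genes was 0.02. In tamoxifen+primidone against control, 6 of the 7 were negative (median -0.32) and 6 of the 6 positive (median 0.43), beside an all-gene median of 0.01. On log2(FPKM + 1) and log2(FPKM + 0.1), 5 of the 7 were negative against control, and each other scaling of the counts gave 6. In tamoxifen against control, 3 of the 7 and 4 of the 6 were negative (medians 0.07 and -0.01), or 3 of the 6 with RLE factors, with DESeq2 or with the compared groups alone. Each pair of these comparisons shares 1 group of libraries. Against tamoxifen, ranges did not overlap in 4 of the 7, all lower, and 2 of the 6, both higher. Of all genes, 8.55% were lower and 8.08% higher without overlap (16.6% in all). Against control these were 4 of the 7, all lower, and 4 of the 6, all higher. Of all genes, 15.1% were lower and 14.1% higher there (29.1% in all). Because the subsets were chosen by these values, their counts cannot be weighed against the shares.

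**Figure D4:**
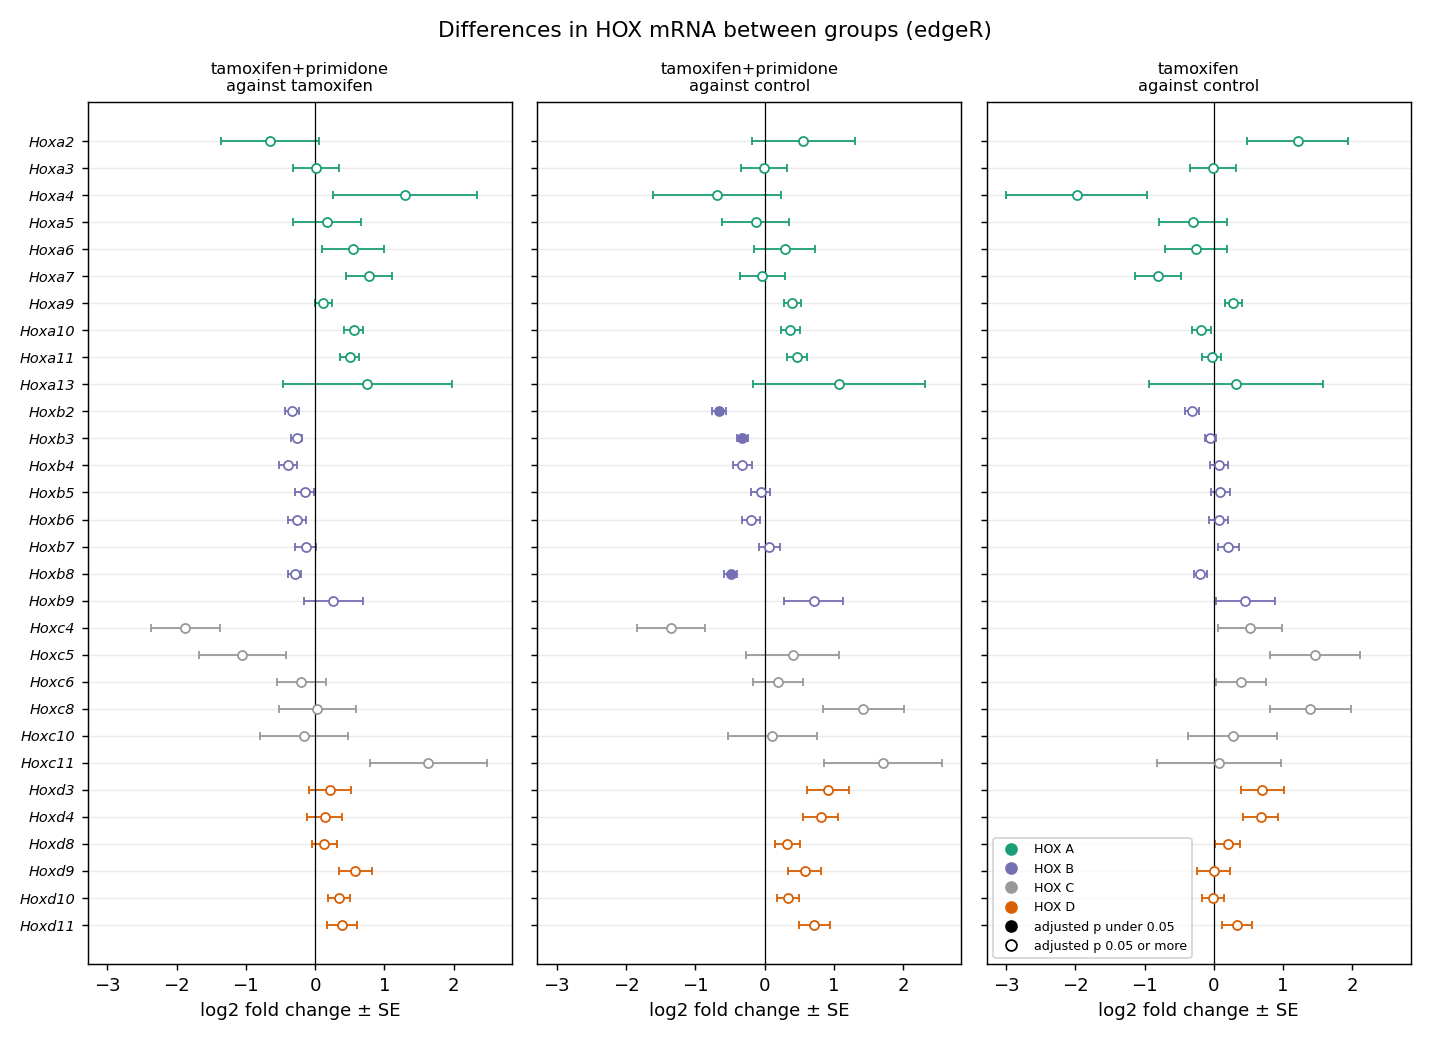
Log2 fold change ± SE (edgeR, horizontal axes) of the 30 tested HOX genes in 3 comparisons, colored by cluster, with filled points for an adjusted p under 0.05. The filled points are Hoxb2, Hoxb3 and Hoxb8 in tamoxifen+primidone against control.

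Ratios within a library do not depend on scaling between libraries. Hoxa10 over Hoxb8, in FPKM, was 1.65, 1.48 and 1.23 with tamoxifen+primidone, 0.836, 0.863 and 0.68 with tamoxifen and 0.879, 0.846 and 0.65 in controls. Hoxa11 over Hoxb8 was 1.90, 1.87 and 1.63 with tamoxifen+primidone, 1.06, 1.11 and 0.912 with tamoxifen and 1.04, 1.01 and 0.71 in controls. The tamoxifen+primidone libraries stood above the other 6 in both ratios, and the tamoxifen and control libraries overlapped. The values of these gene pairs were known when the pairs were chosen.

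The promoters of Hoxb8, Hoxa10 and Hoxa11 are shown because these abundant genes differed in opposite directions, a choice made with their values known. The RefSeq promoter table (GRCm38.p6) held 24 starts of 22 HOX genes, and Hoxb2 and Hoxb3 were not among them. Each line gives the 250 bases before the start on the gene's own strand, for Hoxb8 at chr11:96281655-96281904 on the plus strand, for Hoxa10 at chr6:52234940-52235189 on the minus strand and for Hoxa11 at chr6:52245811-52246060 on the minus strand. Hoxa10 has 2 starts in the table, and the stretch before the other one, at chr6:52240855-52241104, held 0 matches to the motifs below. Both strands were searched for 7 motifs, and capitals mark the matches. They were the TATA box as TATAAA, the CCAAT box by its letters, the estrogen response half-site as GGTCA, the full estrogen response element as GGTCANNNTGACC, the half-site of progesterone and glucocorticoid receptors as TGTTCT, the E-box as CACGTG and a posterior HOX site as TTTATGG.
Hoxb8: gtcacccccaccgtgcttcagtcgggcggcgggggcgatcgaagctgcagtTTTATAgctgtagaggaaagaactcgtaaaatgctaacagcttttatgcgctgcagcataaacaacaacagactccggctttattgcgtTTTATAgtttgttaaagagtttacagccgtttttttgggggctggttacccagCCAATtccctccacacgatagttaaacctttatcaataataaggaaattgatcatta
Hoxa10: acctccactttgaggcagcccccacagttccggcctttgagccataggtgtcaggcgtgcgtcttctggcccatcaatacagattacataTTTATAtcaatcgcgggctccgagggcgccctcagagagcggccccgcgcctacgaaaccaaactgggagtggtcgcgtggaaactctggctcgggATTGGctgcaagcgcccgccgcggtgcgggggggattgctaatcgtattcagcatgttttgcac
Hoxa11: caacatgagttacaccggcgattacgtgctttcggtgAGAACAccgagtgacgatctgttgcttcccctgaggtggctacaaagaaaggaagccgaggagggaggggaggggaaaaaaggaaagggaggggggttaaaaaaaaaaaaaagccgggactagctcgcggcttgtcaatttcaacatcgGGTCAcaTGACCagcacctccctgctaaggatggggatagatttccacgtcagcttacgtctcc
The Hoxb8 stretch held TATAAA at 2 places and CCAAT at 1, and the Hoxa10 stretch held 1 of each. All these TATAAA matches read on the opposite strand. They lay 199 to 194 and 110 to 105 bases before the start in Hoxb8 and 160 to 155 bases before it in Hoxa10. The Hoxa11 stretch held GGTCA once on each strand, at 64 to 60 and 57 to 53 bases before the start, facing each other 2 bases apart, and TGTTCT once. None of the 24 HOX stretches held the full element, which has a spacer of 3 bases and occurs in 0.0639% of all 32841 promoters. Of the 24, 45.8% held GGTCA against 35.2% of all promoters, 58.3% held CCAAT against 33.9%, 16.7% held TATAAA against 12.4% and 8.33% held TGTTCT against 16.1%. CACGTG was in 16.7% against 6.02% and TTTATGG in 4.17% against 2.43%. HOX stretches were richer in GC, with a median of 58.6% against 52.4%, and in CpG, with an observed over expected ratio of 0.721 against 0.374. A match is a run of letters, not a shown binding site.

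Taking both tamoxifen-dosed groups together against control, Hoxb2 fell by 0.49 on the log2 scale (SE 0.09, adjusted p = 0.016) and Hoxb8 by 0.34 (SE 0.08, adjusted p = 0.0425). These were 2 of 30 tested members, both lower, against 3.04% lower, 1.82% higher and 4.87% in either direction among all genes. At an unadjusted p under 0.05, 5 HOX genes were higher and 3 lower, against 11% and 12.1% of all genes (23.1% in all). Ranges did not overlap for 2 higher and 2 lower, against 6.04% and 6.57% (12.6% in all). This contrast uses the same control libraries as the others and is no independent evidence. Hoxb2 lost its call without control 1 or 2 (adjusted p = 0.0868 and 0.0631), and Hoxb8 lost its call in every leave-one-out fit other than the one without tamoxifen+primidone 3 (adjusted p from 0.0563 to 0.154). DESeq2 called 5 HOX genes, Hoxa9, Hoxd3 and Hoxd4 higher and Hoxb2 and Hoxb8 lower, against 5.75% higher and 6.28% lower among all genes (12% in all). By edgeR no HOX gene rose, or Hoxd4 alone with a replicate term or without tamoxifen+primidone 3. Hoxd4 at 0.74 (SE 0.23, adjusted p = 0.0856) and Hoxa9 at 0.34 (SE 0.11, adjusted p = 0.0975) had the smallest adjusted p among those higher. For the other members given in each comparison, the differences were 0.10 for Hoxa10 (SE 0.12, adjusted p = 0.678), 0.22 for Hoxa11 (SE 0.12, adjusted p = 0.311) and 0.70 for Hoxa13 (SE 1.10, adjusted p = 0.751). Hoxd10 differed by 0.16 (SE 0.14, adjusted p = 0.527), Hoxd11 by 0.53 (SE 0.19, adjusted p = 0.144) and Hoxd3 by 0.81 (SE 0.27, adjusted p = 0.114). Hoxb3 differed by -0.19 (SE 0.07, adjusted p = 0.14) and Hoxc8 by 1.41 (SE 0.53, adjusted p = 0.15).

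HOX genes also differed among mice of 1 group. Of the 30 tested members, 21 (70%) were lowest of their group in tamoxifen+primidone library 3, against 33.9% of all tested genes, and these included all 6 tested HOX D genes and 7 of 10 HOX A genes. The 9 others were Hoxa4, Hoxa10, Hoxa11, Hoxb2, Hoxb4, Hoxb7, Hoxb8, Hoxc4 and Hoxc5. Tamoxifen+primidone library 1 was the highest of its group for 17 of the 30 (56.7%), against 34.2% of all tested genes. Its proliferation markers summed to 76.1 CPM, against 244 and 214 CPM in the other tamoxifen+primidone libraries. Library 3 had the lowest sum of 9 endometrial stroma markers, 5494 CPM against 5575 to 7166 CPM in the other 8, and the part of these sums in the HOX values was not tested. For the 13 members averaging at least 5 FPKM, the coefficient of variation over the 3 libraries had a median of 13.2% with tamoxifen+primidone, 11% with tamoxifen and 8.49% in controls. Genes of like level had 9.58% with tamoxifen+primidone, 8.42% with tamoxifen and 7.12% in controls. Taken singly, 8 of the 13 members exceeded the median of their like-level genes with tamoxifen+primidone, 6 with tamoxifen and 7 in controls.

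Further gene sets bear on HOX function, the TALE partners and uterine genes that other work ties to Hoxa10 or Hoxa11. Of 9 TALE genes, all tested, 1 rose with tamoxifen+primidone against control: Pknox1, by 0.57 on the log2 scale (SE 0.14, adjusted p = 0.0477). None fell, with 2.14% of all genes higher and 5.35% called in either direction, and the median over the list was 0.10 beside 0.01 for all genes. Pknox2 passed in both dosed groups together against control, at 0.48 (SE 0.10, adjusted p = 0.0306), with 1.82% of all genes higher there.

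Of 15 tested uterine genes tied to Hoxa10 or Hoxa11, 1 rose and 1 fell with tamoxifen+primidone against control (list median 0.01), beside 2.14% higher and 3.21% lower among all genes. Hand2, a stromal transcription factor induced by progesterone, rose by 0.70 (SE 0.10, adjusted p = 0.00777). Ptger4, a prostaglandin E2 receptor, fell by 0.65 (SE 0.11, adjusted p = 0.0137). Tamoxifen against control gave 0 calls in this list by edgeR, with 2 genes higher and 1 lower at an unadjusted p under 0.05 (all genes: 8.82% and 8.95%), and tamoxifen+primidone against tamoxifen gave 0, with 3 higher and 2 lower (all genes: 6.3% and 7.51%). Against tamoxifen, Cdkn1a, the p21 cell cycle inhibitor, had a log2 difference of -0.71 (SE 0.10, adjusted p = 0.0518) and Hand2 one of 0.56 (SE 0.10, adjusted p = 0.0776). With tamoxifen against control, the log2 difference was -0.50 for Ptger4 (SE 0.11, adjusted p = 0.0536) and 1.07 for Lif, the cytokine that opens the implantation window (SE 0.26, adjusted p = 0.0751).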

How the data were processed

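RNA-seq of uterus was deposited by the authors as raw read counts per gene and as FPKM for the same 9 libraries, 3 a group. The submitters' processing notes name HISAT2, HTSeq, DESeq2, R 3.2.0 and the genome build GRCm39. The annotation and strand setting were not given in the sources used here. FPKM values, as made by the authors, are scaled to gene length and library size. Gene lengths implied by counts and FPKM were whole to within 0.01 for 99.97% of genes.

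Counts were tested in R 4.3.3 with edgeR 4.0.16 (TMM scaling, filterByExpr by group, robust quasi-likelihood test, two-sided). All 9 libraries entered 1 fit with 1 coefficient a group and no covariate. 4 contrasts were tested, p-values were adjusted by Benjamini-Hochberg over 15186 genes, and the threshold was 0.05. A standard error is the log2 fold change over the square root of its F statistic. TMM factors were 1.0181 to 1.0499 with tamoxifen+primidone and 0.9704 to 0.9969 in the other libraries. Levels are deposited FPKM, marker sums and group ranges TMM-scaled CPM. Alternatives used DESeq2 1.42.0, limma 3.58.1 (voom, or log2(FPKM + 1) and log2(FPKM + 0.1) with a minimum of 0.5 FPKM in 3 libraries), other scaling factors, no filter, a replicate term, fewer groups and leaving out each library. The test was tried on simulated counts.

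HOX members with a mean of at least 5 FPKM or an unadjusted p under 0.05 in a contrast were given in every library. Fold changes were given for members with such a p in that contrast and for Hoxa9, Hoxa10, Hoxa11, Hoxa13, Hoxd10 and Hoxd11. List genes were named if past the test or among the 2 with the smallest p of a list. Some members and partners are not reported here. The members and lists were chosen with earlier results of these data known. Of 2 further lists, noncoding RNAs of the clusters and ParaHox genes, no gene could be tested. Protein sequences were not used here. Promoters and gene overlaps come from RefSeq (GRCm38.p6) and GENCODE vM21, and no coordinates were converted.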

Additional observations from a re-analysis of the deposited data

How the results depend on the processing

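Whether replicate numbers pair the libraries could not be decided from the correlations of their deviations. Those of same-numbered pairs were -0.134 to 0.177, with 3 of 9 over 0.1. Those of differently numbered pairs were -0.291 to 0.158, with 3 of 18 over 0.1, and 5 of 9 libraries correlated best with their own number. A replicate block raised edgeR calls from 233 to 317 in tamoxifen against control and from 812 to 984 in tamoxifen+primidone against control. In both dosed groups against control calls rose from 739 to 899. With a replicate block edgeR called 53 genes in tamoxifen+primidone against tamoxifen (2 without it), and 5 HOX genes in tamoxifen+primidone against control, 2 higher and 3 lower, in place of 3. HOX calls in that comparison numbered 8 with DESeq2, 5 higher and 3 lower, and 0 to 4 when 1 library was left out: 0 without control 1, 4 without tamoxifen+primidone 3, and 1 without control 2, control 3 or tamoxifen+primidone 2. In both dosed groups against control they numbered 5 with DESeq2, 1 in each limma fit on FPKM, and 0 to 3 with 1 library left out, 0 without control 1 or 2 and 1 without any other library but tamoxifen+primidone 3. DESeq2 called 3 HOX genes in tamoxifen+primidone against tamoxifen. In tamoxifen against control none of the 19 alternatives called a HOX gene.

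Counts over all genes moved more. DESeq2 called 1143 genes in tamoxifen against control, 600 in tamoxifen+primidone against tamoxifen, 1889 in tamoxifen+primidone against control and 1826 in both against control. In tamoxifen against control, 546 were called from the compared groups alone and 144 on log2(FPKM + 1) without a filter, which gave 481 in both against control and 0 in tamoxifen+primidone against tamoxifen. That comparison gave 9 with RLE factors, 21 without a filter and 1 on filtered log2(FPKM + 1) or log2(FPKM + 0.1). Leaving out 1 library gave 22 to 439 in tamoxifen against control, 0 to 85 in tamoxifen+primidone against tamoxifen, 122 to 800 in tamoxifen+primidone against control and 112 to 946 in both against control. Moves over 1.5 times came without any control, any tamoxifen library or tamoxifen+primidone 1 in the first, and in the second without any library but controls 2 and 3 (85 without tamoxifen+primidone 1). In the third they came without any control or tamoxifen+primidone 2, and in the last without any control, tamoxifen 1 or tamoxifen 3. In both against control, calls split into 277 higher and 462 lower, or 368 and 319 on log2(FPKM + 1), and 386 and 299 on log2(FPKM + 0.1), and in tamoxifen+primidone against control into 664 and 318 on log2(FPKM + 0.1) and 463 and 237 on unfiltered log2(FPKM + 1). The causes were not tested.

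No called difference turned sign, and those that did were the following. In tamoxifen against control, Hoxa11 (-0.03) ran from -0.171 to 0.073 with 1 library left out and was positive without control 1, control 2 or tamoxifen 3. Hoxd10 (-0.01) ran from -0.11 to 0.085, positive without control 2, control 3 or tamoxifen 3, and Hoxa13 (0.32) from -0.481 to 4.86, negative without the same libraries. In both against control, Hoxa10 (0.10) ran from -0.012 to 0.171, negative without control 3. With 3 mice a group and no label of cage, litter or cycle stage, the precision of each HOX value is limited, and how it varies with expression level was not tested.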

Other observations

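Genes that border the clusters were looked at as a list of 18, of which 12 could be tested. With tamoxifen+primidone against control 1 rose and 0 fell by edgeR (median 0.00, beside 0.01 for all genes, of which 2.14% were higher and 3.21% lower): Skap1, a T cell adaptor gene next to HOX B, by 1.52 on the log2 scale (SE 0.30, adjusted p = 0.0222). Skap1 was scarce, at a mean of 1.87 CPM, and the sum of 8 T and NK cell markers was 22.7 to 25.9 CPM with tamoxifen+primidone, 17.0 to 31.7 CPM with tamoxifen and 13.5 to 15.6 CPM in controls. Whether these move for one reason was not tested. With tamoxifen against control, where 0.573% of all genes were higher and 0.961% lower, 0 rose and 1 fell: Hnrnpa1, an RNA-binding protein gene near HOX C, by 0.48 (SE 0.08, adjusted p = 0.024). Hnrnpa1 differed by 0.34 in tamoxifen+primidone against tamoxifen (SE 0.08, adjusted p = 0.134). Evx1 and Evx2, homeobox genes at the posterior ends of HOX A and HOX D, averaged 0.00284 CPM each and were not tested.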
